A study of Mus musculus with 9 samples.

Results

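The genes described here encode the integrins, the laminins and the nidogens that tie cells to the basement membrane, and they were compared between mouse tumours and normal skeletal muscle. The members were a list of 39 gene symbols. A member was taken where a probe set of the array was annotated with its symbol alone, and the probe set with the highest mean level stood for the gene. This found 30 of the 39 members among 14440 genes. Itga1, Itga5, Itga11, Itgb8, Itgb1bp2, Lamb2, Lamb3, Nid1 and Hspg2 were not analysed here.

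The data were 5 arrays of tumours and 4 arrays of skeletal muscle, each from total RNA of whole tissue. The tumours came from mice labelled MYF-5 CRE/SSM2 and are described as SYT-SSX tumours. Their titles carry the names CC23 (tumour 1), CC17-B (tumour 2), CC17-A (tumour 3), SSM5 (tumour 4) and SSM4 (tumour 5). Synovial sarcoma is a cancer of soft tissue that makes the SYT-SSX fusion protein, and Cre under Myf5 acts in cells of the muscle lineage and in other cells that have used that gene. Muscles 1 to 4, from animals titled wild type, were taken from the hind limb (1 and 4), between the ribs (2, intercostal) and from the forelimb (3), so tissue and genotype cannot be told apart in any comparison. Strain, age and sex were not given in the sources used here. Nothing says that every array came from a separate animal, and tumours 2 and 3 share the name CC17, so p-values here reflect how far these samples spread, which may in part be technical.

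An integrin is a receptor made of an alpha and a beta chain that binds matrix proteins outside the cell and the actin cytoskeleton, through adaptor proteins, inside it. A laminin is a cross-shaped protein of an alpha, a beta and a gamma chain that builds the sheet of the basement membrane together with type IV collagen, nidogen and perlecan. In adult muscle fibres the main laminin holds the Lama2 chain, and its receptors are the integrin of Itga7 and Itgb1 and the dystroglycan complex. Itga6 is the related laminin-binding chain of many other cells, such as epithelia and endothelium.

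Promoter sequence is shown for 4 members whose level differed, to give the regulatory context of genes that were higher and of genes that were lower in the tumours. Of the 30 members in the table, 17 had an entry in the RefSeq promoter table (GRCm38.p6). The capitals mark an E-box, CANNTG, the site class of myogenic factors such as Myf5, or a GC box, GGGCGG, each searched on both strands. The E-box letters were found in 66.2% and the GC box letters in 32.7% of all 32851 promoter windows of the same 250 bases, so a match is common and is only a description. The windows end at the base before the annotated start.
Itgb1, higher, chr8:128685404-128685653, plus strand: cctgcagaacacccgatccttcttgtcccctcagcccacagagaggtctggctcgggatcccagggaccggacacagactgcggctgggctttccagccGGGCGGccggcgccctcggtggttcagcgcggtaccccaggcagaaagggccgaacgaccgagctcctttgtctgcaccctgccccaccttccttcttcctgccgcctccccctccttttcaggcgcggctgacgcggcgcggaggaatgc
Lamb1, higher, chr12:31265043-31265292, plus strand: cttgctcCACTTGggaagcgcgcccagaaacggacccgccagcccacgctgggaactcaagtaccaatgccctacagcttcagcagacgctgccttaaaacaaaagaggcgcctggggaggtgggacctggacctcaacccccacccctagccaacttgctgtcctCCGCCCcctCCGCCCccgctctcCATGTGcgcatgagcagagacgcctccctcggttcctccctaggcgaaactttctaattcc
Lama2, lower, chr10:27616943-27617192, minus strand: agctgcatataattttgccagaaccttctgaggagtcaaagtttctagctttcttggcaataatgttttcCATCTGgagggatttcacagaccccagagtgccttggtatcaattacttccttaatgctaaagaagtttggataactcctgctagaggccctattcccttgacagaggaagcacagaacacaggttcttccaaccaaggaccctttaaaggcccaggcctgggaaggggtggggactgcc
Itga10, lower, chr3:96645334-96645583, plus strand: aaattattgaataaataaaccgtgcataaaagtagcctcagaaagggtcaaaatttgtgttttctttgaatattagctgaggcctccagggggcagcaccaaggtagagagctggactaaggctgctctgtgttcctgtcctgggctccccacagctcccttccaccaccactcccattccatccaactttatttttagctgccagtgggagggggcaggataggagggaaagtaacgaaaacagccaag
The GC content of these windows was 68.0% for Itgb1, 62.0% for Lamb1, 47.2% for Lama2 and 48.0% for Itga10. Itgb6, also lower, had windows at 2 annotated starts, which are not printed. Each of them held 3 E-boxes and no GC box, with a GC content of 52% and 38%.

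The comparison asked which integrin and laminin chains the tumours and the muscle used. Among the members, Itga6, Itgb1, Lamb1 and Nid2 were higher in the tumours, by 1.87 to 2.55 times, and Itga7 and Lama2 were lower, by 2.66 and 2.19 times. Itga10 and Itgb6 were also lower, with 4 of 5 tumours below the floor described next, so no fold is given for them. Of the 30 members, 24 reached the floor of the array, its 40th percentile, on at least 4 arrays and were tested. In limma's test across all genes tested, an adjusted p under 0.05 counted as a call. On that rule 4 members were higher, 4 lower and 16 not called, or 33.3% called against 48.0% of the 10650 genes tested, where 30.1% of all genes were higher and 17.9% lower. Among all calls 62.6% were higher, a share that was 51.8% with each array centred on its median and 75.5% when ribosomal protein and proteasome genes set the scale. The tumour and muscle arrays did not overlap for 4 of the 24 members (Itga6, Itga7, Itga10 and Nid2), and for 40.3% of all genes tested. The median log2 difference of the 24 members was 0.10, and that of all genes 0.23. These shares lie near or under the background, so the members as a whole did not stand out, and what follows is about single chains.

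**Figure D1:**
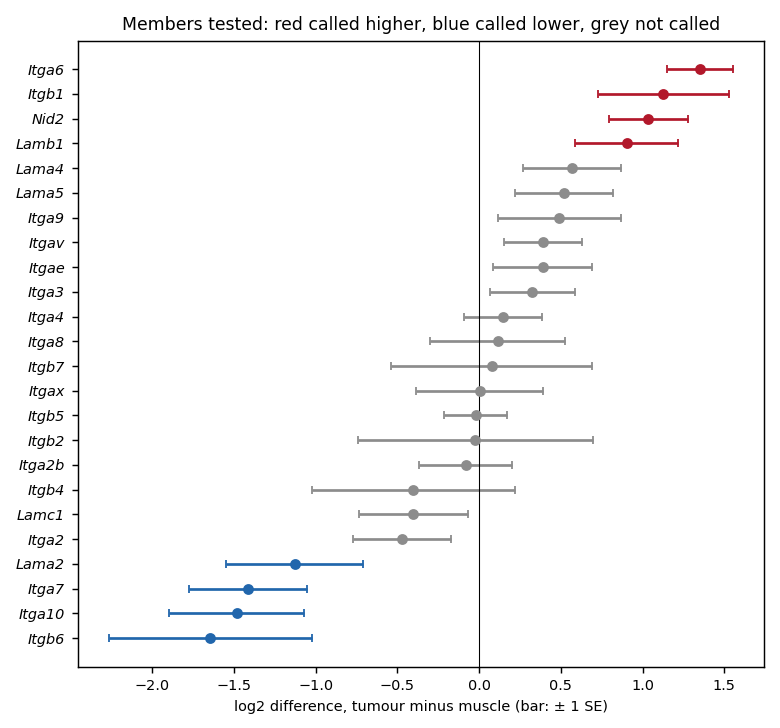
The log2 difference of tumour minus muscle (horizontal axis) of the 24 members tested, with bars of 1 standard error. The 4 members called higher (Itga6, Itgb1, Nid2 and Lamb1) lie between 0.90 and 1.35, the 4 called lower between −1.64 and −1.13, and the other 16 spread around zero.

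The libraries differed in their levels of cell type markers. The summed scaled intensity of 11 skeletal muscle markers ran from 440 to 138396 in the tumours and from 518069 to 670771 in the muscles, and in tumour 4 it was lowest, with all 11 markers below the floor. The sum of 13 endothelial markers was 4426 to 6513 in the tumours and 9052 to 10432 in the muscles, and that of 9 macrophage and myeloid markers 6954 to 20897 and 5438 to 6751. Muscle 2 was highest for the 4 adipocyte markers, at 115492 against 28499 to 35324 in the other muscles, and muscle 3 for the 7 neutrophil markers, at 49082 against 882 to 4204. Tumour 3 was highest for the 7 epithelial markers, at 13457 against 2320 to 3226 in the other tumours and 480.0 to 1174 in the muscles. The fast myosin Myh4 was at 44249 to 72972 in the muscles and at 103, 259, 6.06, 2.54 and 6571 in tumours 1 to 5, and 8 to 11 of the 11 muscle markers were at or above the floor in tumours 1, 2, 3 and 5. Epcam, of epithelia, was at 397 to 4697 in the tumours and 10.7 to 37.8 in the muscles, Cd68, of macrophages, at 153 to 952 and 159 to 238, and Pecam1, of endothelium, at 25.8 to 425 and 420 to 565. Of the markers tested, 10 of 11 for muscle, 8 of 13 for endothelium and 3 of 5 for Schwann cells were called lower and none of these higher. For macrophages 4 of 9 and for epithelia 4 of 6 were called higher and none lower, and for fibroblasts 2 of 7 were higher and 2 lower. Over all genes tested the shares were 30.1% higher and 17.9% lower. The sums of pericyte and smooth muscle markers were 5871 to 11901 in the tumours and 12859 to 13647 in the muscles, and those of platelet markers 1232 to 3569 and 1345 to 3654. The 2 basal keratinocyte markers summed to 62.1 to 234 and 157 to 267. In such whole tissue fewer cells of a type and less RNA per cell cannot be told apart.

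Among the laminin-binding alpha chains, Itga6 rose and Itga7 fell. Itga6 (1422445_at) stood at 1161, 1617, 1694, 1832 and 2138 in tumours 1 to 5 and at 708, 670, 614 and 573 in muscles 1 to 4. Every tumour lay above every muscle, and the muscle values were close together. The means were 1689 ± 356 (SD, n = 5) and 641 ± 59.8 (SD, n = 4), with a log2 difference of 1.35 (SE 0.20, adjusted p = 0.00029 in limma). A second Itga6 probe set (1422444_at) gave 0.77, with adjusted p = 0.0501 when all probe sets were tested singly. Of the cells that also use Itga6, endothelial markers had a lower sum in every tumour than in every muscle, and epithelial markers a higher one (2320 to 13457 against 480.0 to 1174). The part of either was not tested.

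Itga7, the alpha chain of the integrin of muscle fibres, stood at 418, 144, 169, 135 and 428 in tumours 1 to 5 and at 746, 575, 595 and 632 in the muscles. The groups did not overlap, and tumours 1 and 5 lay well above the other tumours. The means were 259 ± 151 (SD, n = 5) and 637 ± 76.2 (SD, n = 4), a log2 difference of −1.41 (SE 0.36, adjusted p = 0.00765). The same tumours 1 and 5 had the highest sums of skeletal muscle markers, 125385 and 138396, against 440 to 43625 in the other tumours. The part of muscle RNA in the level of Itga7 was not tested. Without tumours 1 and 5, an alternative chosen after seeing the data, the log2 difference was −1.98, and it had to widen because these were the highest tumours.

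Itga10, a collagen-binding alpha chain of cartilage and muscle, was at 144, 48.4, 46.8, 58.1 and 75.9 in the tumours and at 160, 459, 196 and 163 in the muscles. Tumours 2 to 5 lay below the floor, so the size of the change is limited by background, and muscle 2 was the highest. The 4 muscles alone, where Itga10 was high, were enough for it to pass the filter on dim genes. The log2 difference was −1.48 (SE 0.41, adjusted p = 0.0118), with means of 74.7 ± 40.6 (SD, n = 5) and 245 ± 144 (SD, n = 4). Without muscle 2 the log2 difference was −1.15 (adjusted p = 0.0408).

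**Figure D2:**
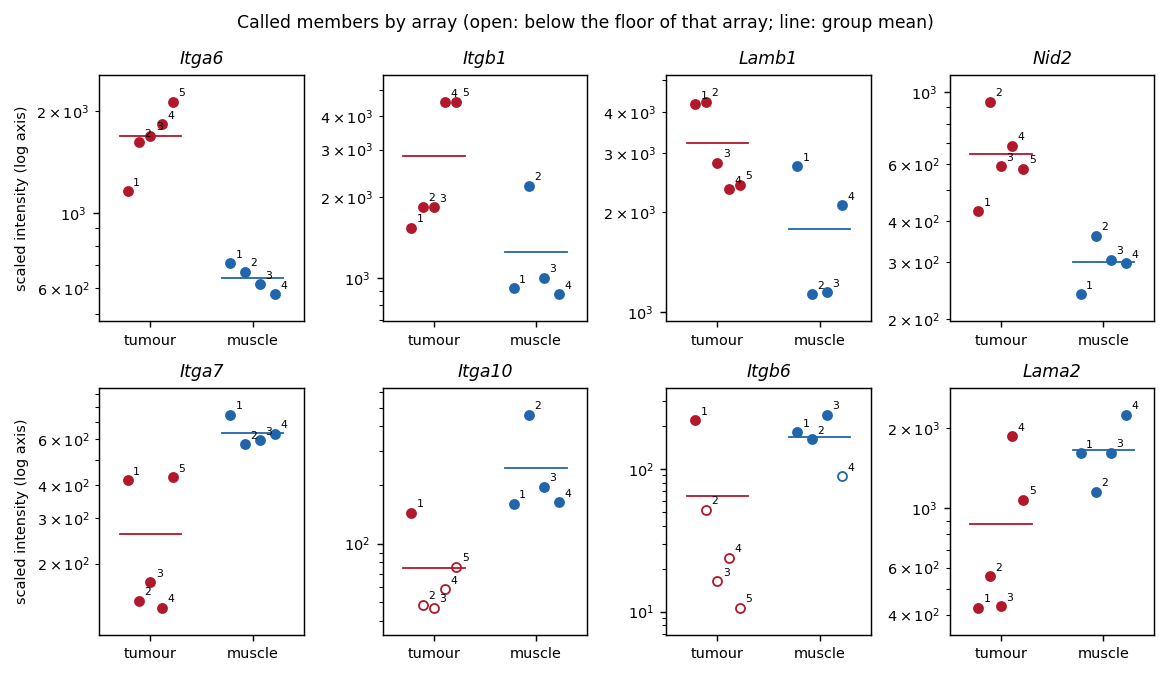
Scaled intensity (vertical, logarithmic axis) of the 8 called members on each array, with tumours in red, muscles in blue, the array number beside each point, a line at the group mean, and open circles below the floor of that array. Itga6, Itga7, Itga10 and Nid2 show no overlap between the groups, while the ranges of the groups overlap for Itgb1, Lamb1, Itgb6 and Lama2.

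Of the beta chains, Itgb1, the partner of most laminin- and collagen-binding alpha chains, was higher and Itgb6, a beta chain of epithelia that pairs with Itgav, was lower. Itgb1 (1452545_a_at) stood at 1543, 1844, 1834, 4502 and 4518 in tumours 1 to 5 and at 922, 2201, 1006 and 872 in the muscles. Tumours 4 and 5 were far above the rest, and muscle 2 lay above tumours 1 to 3. The means were 2848 ± 1522 (SD, n = 5) and 1250 ± 636 (SD, n = 4), a log2 difference of 1.13 (SE 0.40, adjusted p = 0.0368). The call ended without tumour 4 or 5 or muscle 1, 3 or 4 (adjusted p from 0.0729 to 0.101), and also on the values as deposited (adjusted p = 0.0972) and under centring of the arrays on the median (adjusted p = 0.102). Another Itgb1 probe set (1426918_at) gave 1.49 (adjusted p = 0.0267 over probe sets), while 1427771_x_at gave −0.60 (adjusted p = 0.367), and the mean of all probe sets was not called (0.50, adjusted p = 0.0782). Tumours 4 and 5 also had the highest sums of the 7 fibroblast markers, 114604 and 74634, against 26946 to 39951 in tumours 1 to 3. In the muscles these sums were 50368 to 64910, above tumours 1 to 3, while Itgb1 in muscles 1, 3 and 4 was below those tumours. The part of such cells was not tested.

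Itgb6 was at 220, 51.6, 16.3, 23.9 and 10.6 in the tumours and at 181, 162, 239 and 89.0 in the muscles. Tumours 2 to 5 and muscle 4 were below the floor, while tumour 1 matched the muscles. The log2 difference was −1.64 (SE 0.62, adjusted p = 0.0472), and it was −2.15 and −1.01 at pseudocounts of 1 and 64, neither of them called (adjusted p = 0.0502 and 0.0519). With any single array left out there was no call, because the call ended without tumour 2, 3, 4 or 5 or muscle 4 (adjusted p from 0.0504 to 0.0931) and because too few arrays reached the floor for a test without tumour 1 or muscle 1, 2 or 3. The call of Itgb6 also ended with tumours 2 and 3, the CC17 pair, averaged (adjusted p = 0.0719). The second Itgb6 probe set (1432281_a_at) had a log2 difference of −1.16 (adjusted p = 0.0202 over probe sets). It too reached the floor on only 4 arrays, with means of 47.5 in the tumours and 129 in the muscles, so its difference is limited by background. Tested in the same way over probe sets, the first (1422983_at) was not called (adjusted p = 0.0519).

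The other beta chains differed by less than their standard errors. Itgb5, which with Itgav binds vitronectin, was at 2477 to 3925 in the tumours and 2395 to 3321 in the muscles. It was called higher, by 0.78, when the unsuffixed probe set 1417534_at stood for it (adjusted p = 0.0116). Itgb4, the beta chain of epithelial hemidesmosomes, was at or above the floor only in tumours 3 and 4 (174 and 132) and muscles 1 and 3 (129 and 208). Itgb7, a lymphocyte chain, was at 12.1 to 188 in the tumours and 43.8 to 117 in the muscles. Itgb3, the beta chain of platelets and osteoclasts, was below the floor on all 9 arrays, at 4.12 to 70.8, and was not tested.

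Of the other alpha chains, Itga10 apart, none was called. Itgav, the alpha chain of the vitronectin receptors, was at 3629 to 8421 in the tumours, with tumour 4 highest, and at 3567 to 4303 in the muscles (log2 difference 0.39, SE 0.24, adjusted p = 0.2). Itga9, which binds tenascin C, was at 420, 260, 235, 84.6 and 272 in the tumours and 143 to 184 in the muscles. Only tumour 4 lay below the muscles, and the log2 difference of 0.49 (SE 0.38, adjusted p = 0.308) was 0.81 without tumour 4 (adjusted p = 0.0306). A second Itga9 probe set (1450029_s_at) gave 1.72 (adjusted p = 0.0169 over probe sets). That probe set reached the floor on only 4 arrays, with means of 151 in the tumours and 44.6 in the muscles. Its difference is therefore limited by background. Itga3, a laminin-binding chain of epithelia, was at 758 in tumour 3 and at 325 to 407 in the other tumours, against 277 to 389 in the muscles (log2 difference 0.33, SE 0.26, adjusted p = 0.324). Itga2, a collagen receptor chain, was at 77.5 to 157 and 115 to 161, with tumours 1, 2, 4 and 5 below the floor (log2 difference −0.47, SE 0.30, adjusted p = 0.219). Itga4, Itga8 and Itga2b, the last a platelet chain, differed by less than their standard errors, with ranges of 433 to 717, 108 to 521 and 168 to 428 in the tumours and 358 to 630, 176 to 312 and 227 to 377 in the muscles.

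Of the leukocyte chains that passed the filter, none was called, and Itgam did not pass it. Itgb2, the beta chain shared by leukocyte integrins, was at 28.7, 333, 195, 427 and 985 in tumours 1 to 5 and at 342, 226, 384 and 149 in the muscles. Tumour 1 was below the floor, and tumours 4 and 5 lay above every muscle. The order of the tumours by Itgb2 (1, 3, 2, 4, 5) was also their order by the sum of the macrophage and myeloid markers, which was 6954, 8224, 14577, 16028 and 20897 in that order, and the part of those cells was not tested. In the muscles the orders differed. Itgax, a chain of dendritic cells and macrophages, was at 313 in tumour 5 and below the floor in the other tumours, and at 96.7 to 156 in the muscles. Itgam, the macrophage and neutrophil chain, was below the floor in all tumours (44.4 to 70.0) and at 87.6 to 171 in the muscles, with no overlap. It was called lower with no filter on dim genes (log2 difference −0.995, adjusted p = 0.027), where only 3 of the 9 arrays reached the floor. Itgal, the lymphocyte chain, was at or above the floor only in tumours 1 and 5 and muscle 3 and was not tested. Itgae, a chain of lymphocytes in epithelia, was at 260 to 359 in the tumours and at 172, 476, 169 and 196 in the muscles (log2 difference 0.39, SE 0.31, adjusted p = 0.318). Muscle 2 alone lay above the tumours, and without it the log2 difference was 0.72 (adjusted p = 0.0236). Of the 9 lymphocyte markers, 1 was tested and 2 were below the floor on all arrays.

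**Figure D3:**
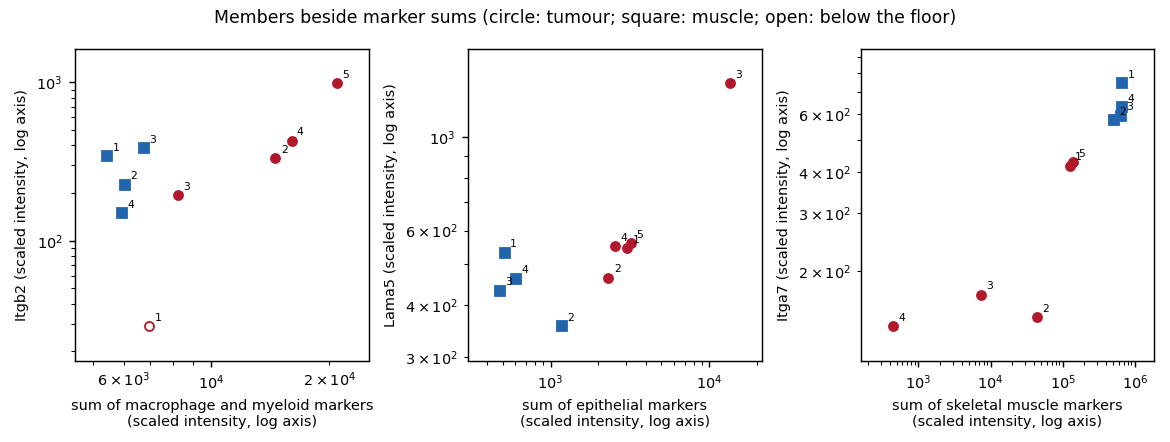
Itgb2, Lama5 and Itga7 (vertical axes) against the sum of macrophage and myeloid, epithelial and skeletal muscle markers (horizontal axes), all in scaled intensity on logarithmic axes, with 1 point per array, circles for tumours and squares for muscles. Tumour 5 is highest for Itgb2 at 985, tumour 3 for Lama5 at 1342, and tumours 1 and 5 are the highest tumours for Itga7 at 418 and 428.

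Among the laminin chains, Lamb1 was higher and Lama2 lower in the tumours. Lama2, the alpha chain of the laminin of muscle fibres, stood at 424, 557, 430, 1866 and 1077 in tumours 1 to 5 and at 1615, 1156, 1621 and 2246 in the muscles. Tumours 1 to 3 were low and tumour 4 lay within the muscle range. The skeletal muscle markers of tumour 4 were below the floor. Tumours 4 and 5 had the highest sums of the 7 fibroblast markers, 114604 and 74634, against 26946 to 39951 in tumours 1 to 3. In the muscles these sums were 50368 to 64910. The part of muscle fibres or of fibroblasts in the level of Lama2 was not tested. The means were 871 ± 618 (SD, n = 5) and 1659 ± 448 (SD, n = 4), a log2 difference of −1.13 (SE 0.42, adjusted p = 0.0442). The call ended without tumour 1, 2 or 3 or muscle 1, 3 or 4 (adjusted p from 0.0859 to 0.12), on the values as deposited (adjusted p = 0.059) and when ribosomal protein and proteasome genes set the scale (adjusted p = 0.163). The call of Lama2 also ended with tumours 2 and 3, the CC17 pair, averaged (adjusted p = 0.0917).

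Lamb1, a beta chain shared by many laminins, those of muscle fibres and vessels included, was at 4224, 4298, 2817, 2344 and 2418 in the tumours and at 2744, 1130, 1146 and 2099 in the muscles. The tumours with high Lama2, 4 and 5, were those with the lowest Lamb1, and muscle 1 lay above both. The means were 3220 ± 967 (SD, n = 5) and 1780 ± 786 (SD, n = 4), a log2 difference of 0.90 (SE 0.31, adjusted p = 0.034). The call ended without tumour 1 or 2 or muscle 2 or 3 (adjusted p from 0.0636 to 0.108), on the values as deposited (adjusted p = 0.0786) and under centring of the arrays on the median (adjusted p = 0.105). The call of Lamb1 also ended with tumours 2 and 3, the CC17 pair, averaged (adjusted p = 0.0565). Of its other probe sets tested, 1424113_at and 1451241_at were also called, at 1.03 and 1.54 (adjusted p = 0.00401 and 0.0283 over probe sets). However, 1451241_at reached the floor on only 4 arrays, with means of 194 in the tumours and 58.9 in the muscles. The size of its difference is therefore limited by background.

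The alpha chains Lama4, of vessels and fat, and Lama5, of epithelia and mature vessels, were not called. Lama4 was at 805, 798, 526, 1529 and 1242 in the tumours and 454 to 723 in the muscles (log2 difference 0.57, SE 0.30, adjusted p = 0.142). Only tumour 3 fell within the muscle range, and without it Lama4 was called (0.76, adjusted p = 0.0396). Lama5 was at 545, 464, 1342, 551 and 559 in the tumours and 355 to 532 in the muscles (log2 difference 0.52, SE 0.30, adjusted p = 0.176). Tumour 3, which had the highest epithelial marker sum and the highest Itga3, carried the mean, and the part of epithelial cells was not tested. Without tumour 3 the log2 difference of Lama5 was 0.25. A second Lama5 probe set (1427010_s_at) was called at 1.08 (adjusted p = 0.0118 over probe sets).

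Lamc1, the gamma chain of nearly all laminins, was at 376 in tumour 1 and at 1063 to 1394 in the other tumours, against 1164 to 1371 in the muscles (log2 difference −0.40, SE 0.33, adjusted p = 0.343). Without tumour 1 the log2 difference was −0.08. Lama1, a chain of the early embryo, was below the floor on all 9 arrays. Lama3, the alpha chain of the skin laminin, and Lamc3 reached the floor on 2 arrays each, which were tumour 2 and muscle 1 for Lama3 and tumour 1 and muscle 3 for Lamc3, and neither was tested.

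Nid2, a nidogen that links laminin to type IV collagen, rose in the tumours. It stood at 430, 937, 593, 685 and 581 in tumours 1 to 5 and at 238, 361, 305 and 297 in the muscles, with no overlap. The means were 645 ± 187 (SD, n = 5) and 300 ± 50.4 (SD, n = 4), a log2 difference of 1.03 (SE 0.24, adjusted p = 0.00472).

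The balance of paired chains was measured within each array, which removes the scaling between arrays. Of 6 pairs, chosen with earlier results of these data known, 3 could be tested, since Lamb2 and Nid1 were not analysed here and Lama1 was below the floor. An exact permutation test over the 126 splits of the arrays was used, two-sided, with adjustment over the 3 pairs, and the smallest p it can give is 0.0159.

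The log2 level of Itga6 minus that of Itga7 was 1.44, 3.35, 3.21, 3.61 and 2.28 in tumours 1 to 5 and −0.07, 0.21, 0.04 and −0.14 in the muscles. The difference in these balances was 2.76, or 6.80-fold (exact permutation p = 0.0159, adjusted p = 0.0238), and every tumour lay above every muscle. Since both chains were already separated in opposite directions, this separation and its p follow from their values above and add no evidence. That of Lama4 minus Lama2 was 0.90, 0.51, 0.28, −0.28 and 0.20 in the tumours and −1.14, −1.32, −1.20 and −1.84 in the muscles. Its difference was 1.70, or 3.24-fold (exact permutation p = 0.0159, adjusted p = 0.0238), again with no overlap. That of Lama5 minus Lama2 was 0.35, −0.26, 1.61, −1.73 and −0.93 in the tumours and −1.57, −1.66, −1.87 and −2.25 in the muscles. Tumour 4 lay within the muscle range there, and the difference of 1.65 (exact permutation p = 0.0476, adjusted p = 0.0476) was 1.20 without tumour 3. Its call ended without tumour 1, 2, 3 or 5 (adjusted p = 0.0857). The 2 laminin balances share Lama2, already called lower in these arrays, so they are not independent of each other or of that call. Without any single muscle, the calls of all 3 pairs ended (adjusted p from 0.0536 to 0.107), while the differences stayed at 1.51 or more. Itga6 minus Itga7 and Lama4 minus Lama2 still had no overlap there, so each was at the smallest p possible with fewer splits. For these pairs the lost call reflects the resolution of the test and does not show dependence on any muscle. A shift in a balance shows that the chains changed unequally. It does not compare the amounts of 2 chains, since probe sets differ in brightness.

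**Figure D4:**
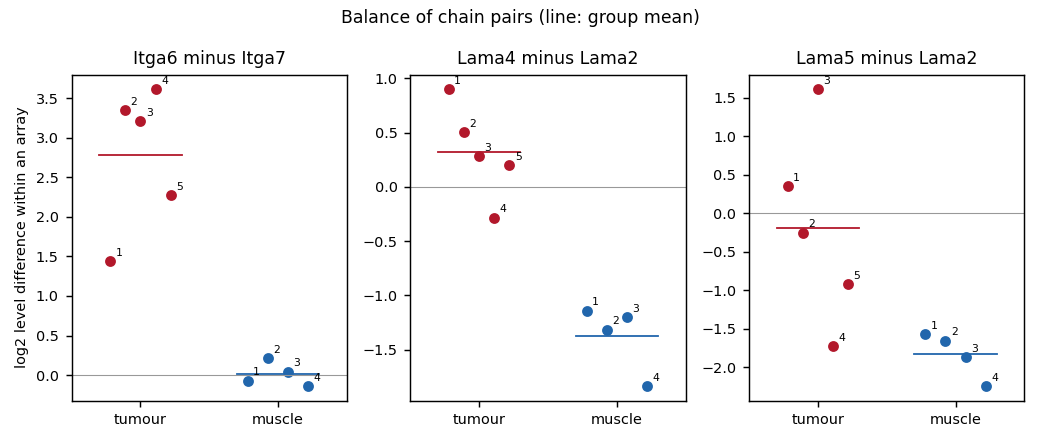
The log2 level of the first chain minus that of the second within each array (vertical axis) for the 3 pairs tested, with tumours in red, muscles in blue, the array number beside each point and a line at the group mean. The tumours lie between 1.44 and 3.61 for Itga6 minus Itga7, above all muscles, and tumour 4 lies among the muscles for Lama5 minus Lama2.

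The other genes of the system were taken from lists of basement membrane components, other laminin receptors, adaptor proteins and integrin ligands. Of 54 such genes in the table, 50 were tested, and 15 were higher, 7 lower and 28 not called, or 44.0% called against the 48.0% of all genes (30.1% higher and 17.9% lower, the shares against which each list below is to be read). Their median log2 difference was 0.00.

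Of the basement membrane list, 15 genes were tested: 7 rose, 2 fell and 6 were not called, with a median log2 difference of 0.69. Ntn1, a laminin-related guidance protein, was at 2854 to 4476 in the tumours and 417 to 556 in the muscles, a log2 difference of 2.84 (SE 0.19, adjusted p = 3.9e-06). Col4a5, a type IV collagen chain, rose by 2.80 on the log2 scale (3329 to 6131 against 470 to 805). Agrn, a heparan sulphate proteoglycan of the neuromuscular junction, rose by 2.52, and Fbln1, a matrix glycoprotein, by 2.46. With the mean of all probe sets these differences were 1.25 and 1.63. Col4a4, another type IV collagen chain, fell by 1.39, with tumours 1 to 4 below the floor. Smoc2, a calcium-binding matrix protein, had a log2 difference of −0.80 (adjusted p = 0.046), and its call ended without any single array other than tumour 2 (adjusted p from 0.057 to 0.12). In all, the call of Smoc2 was lost under 13 of 23 alternatives, with differences from −1.06 to −0.50 and adjusted p up to 0.215.

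The list of other laminin receptors and their partners had 9 genes tested. In it 3 rose, 2 fell and 4 were not called, with a median log2 difference of 0.17. Sdc1, a syndecan, which is a heparan sulphate co-receptor of integrins, was at 6352, 6227, 3137, 2411 and 2823 in the tumours and 191 to 311 in the muscles, a log2 difference of 3.95 (SE 0.32, adjusted p = 9.3e-06), which was 2.68 with the mean of all probe sets and 3.33 with unsuffixed probe sets. Sdc4, a syndecan of focal adhesions, was at 29136, 8063, 2955, 710 and 1496 in the tumours and 402 to 1413 in the muscles. Its log2 difference of 2.47 (adjusted p = 0.0402) was 1.73 without tumour 1, and the call ended without tumour 1, 2 or 3 or muscle 1, 3 or 4 (adjusted p from 0.0543 to 0.102). The difference was 3.06 without tumour 4, 1.42 with the mean of all probe sets and 0.38 with unsuffixed probe sets (adjusted p = 0.666). In all, the call of Sdc4 was lost under 10 of 23 alternatives. The syndecan Sdc3 rose by 0.91, a call lost under 4 of 23 alternatives. Among them were those without muscle 1 or 3 (adjusted p = 0.0548 and 0.0528) and with the mean of its probe sets (0.40, adjusted p = 0.313). Cd151, a tetraspanin that binds the laminin-binding integrins, fell by 0.82 (7127 to 7868 in the muscles, 3080 to 4982 in the tumours), a call lost after quantile normalization (−0.50, adjusted p = 0.071). The glypican Gpc1 fell by 1.40, a call lost without muscle 1 or 3 (adjusted p = 0.0548 and 0.0537).

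In the adhesion complex 3 of 16 genes rose, 2 fell and 11 were not called, with a median log2 difference of −0.16. Parva, an adaptor that binds integrin-linked kinase and actin, was at 289 to 561 in the tumours and below the floor in all muscles, at least 4.27-fold higher. Tgfb1i1, a paxillin relative, rose by 1.49. Vcl, which links talin to actin, had a log2 difference of 0.56 (adjusted p = 0.0429), and its call ended without tumour 2, 4 or 5 or muscle 2, 3 or 4 (adjusted p from 0.0672 to 0.108). In all, the call of Vcl was lost under 12 of 23 alternatives, with differences from 0.36 to 0.84 and adjusted p up to 0.332. Lims2, a partner of Parva and integrin-linked kinase in muscle, fell by 1.91 (207 to 365 against 1072 to 1285), and Tns1, an adaptor that binds beta chain tails, by 1.65.

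Among the ligands 2 of 10 genes rose, 1 fell and 7 were not called, with a median log2 difference of −0.01. Tnc, the matrix protein tenascin C, which Itga9 and Itgav integrins bind, rose by 3.39 (3116 to 5973 against 336 to 460). Tgfb1, whose latent form Itgav integrins bind, rose by 0.68 (adjusted p = 0.0248), a call lost without muscle 3 or 4 (adjusted p = 0.0554 and 0.0753). In all, the call of Tgfb1 was lost under 5 of 23 alternatives, with differences from 0.42 to 0.94 and adjusted p up to 0.125. Vtn, vitronectin, fell by 2.69, with tumours 1 to 4 below the floor and tumour 5 at 252, against 327 to 682 in the muscles, and the difference was −2.04 with the mean of all probe sets and −2.10 at a pseudocount of 64.

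**Figure D5:**
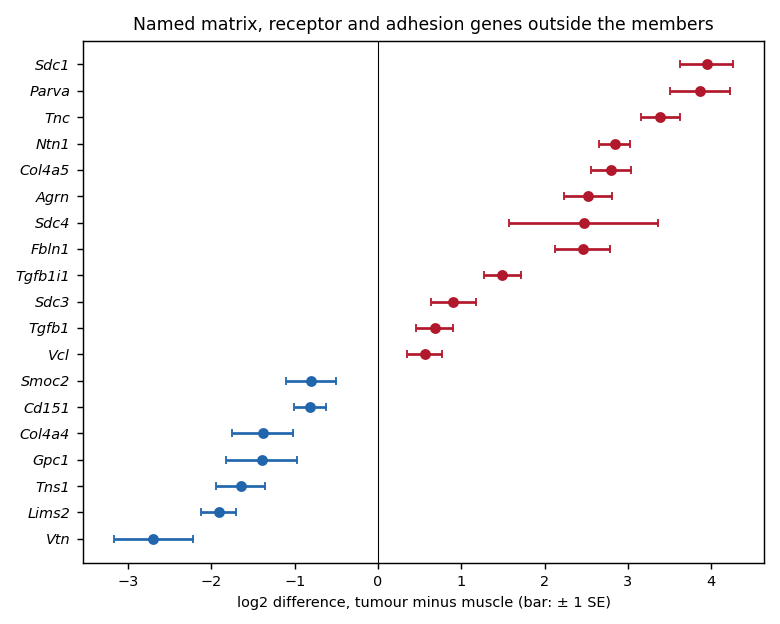
The log2 difference of tumour minus muscle (horizontal axis), with bars of 1 standard error, for the 19 named matrix, receptor, adaptor and ligand genes outside the members. The 12 higher genes run from 0.56 (Vcl) to 3.95 (Sdc1), and the 7 lower genes from −2.69 (Vtn) to −0.80 (Smoc2), where the point of Parva is the fitted value and its muscles lie below the floor.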

How the data were processed

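Total RNA of 5 tumours and 4 muscles was hybridised, 1 array per sample. The deposited values are linear intensity, 1 per probe set, which the authors computed with MAS5 (per the submitters' processing notes). Version, scaling target and detection calls were not given in the sources used here.

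Of 30508 probe sets held, the 7 controls, 496 with several symbols and 4424 with none were left out. Arrays were scaled to a common 2% trimmed mean (430 to 610 before, factors from 0.909 to 1.29), which gave the scaled intensity. Levels were log2(scaled intensity + 16), and a log2 difference is on that scale. The floor ran from 96.5 to 137. The test was limma's (version 3.58.1, under R 4.3.3), a linear model per gene with eBayes and a trend on mean level. It was two-sided, and p-values were adjusted by Benjamini-Hochberg over all genes tested. A gene below the floor in a whole group was given a bound against the floor. Chain pairs were tested in scipy 1.17.1. Precision is limited by how few arrays there were. The procedures were tested on simulated data.

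The members, lists and pairs were chosen with earlier results of these data known. Named were all members, up to 4 called genes per further list and direction, and marker lists by their sums. Alternatives varied scaling, pseudocount, filter, probe set, fit, the CC17 pair and each array. Leaving out tumours 1 and 5 and testing probe sets singly were chosen after seeing the data.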

Additional observations from a re-analysis of the deposited data

Results flagged for a closer look

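A sample far from the rest of its group, by Dixon's gap over the range of log2 levels, was found in 9 of 92 groups of arrays tested, where chance gives about 1 in 20. In tumour 3, Itga3 (ratio 0.739) and Lama5 (0.826) were far above the other tumours, at 758 and 1342. In tumour 5, Itgax (0.727) and Vtn (0.774) were the highest, at 313 and 252. In tumour 1, Lamc1 (0.791) and the adaptor gene Tgfb1i1 (0.806) were the lowest, at 376 and 704. In muscle 2, the intercostal sample, Itgae (0.862) and Itgb1 (0.846) were the highest, at 476 and 2201, and Cd151 (0.85) was the lowest, at 7127.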

How the results depend on the processing

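Itga6, Itga7, Itga10 and Nid2 were called in the same direction under every alternative in which they were tested (23, 22, 22 and 22), with log2 differences from 1.06 to 1.63, −1.98 to −1.15, −1.83 to −1.10 and 0.74 to 1.30. Itgb1, Itgb6, Lama2 and Lamb1 kept their direction but lost the call under 9 of 23, 10 of 16, 12 of 23 and 9 of 23 alternatives in which they were tested. Itgb6 could not be tested under the other 7. With the CC17 pair averaged, the calls of Itgb6, Lama2 and Lamb1 ended (adjusted p = 0.0719, 0.0917 and 0.0565), while Itgb1 kept its call (adjusted p = 0.0378). The count of members higher was 2 on the values as deposited, with arrays centred on their median, and without tumours 1 and 5, and 2 to 5 without single arrays. The count lower was 2 when ribosomal protein and proteasome genes set the scale, with the floor reached on all arrays, with the CC17 pair averaged, and without tumours 1 and 5, and 2 to 3 without single arrays (2 without tumour 1, 2 or 3 or muscle 1, 3 or 4). The median of all genes ran from 0.04 to 0.50 over the scalings and higher calls from 51.8% to 75.5% (62.6% as reported), while over these scalings the members' median stayed 0.12 to 0.16 below that of all genes: −0.14 as reported, −0.12 under centring on the median and −0.16 after quantile normalization. It was above that of all genes with the floor reached on all arrays (by 0.17), without tumour 1 (0.05), with array weights (0.03), and by 0.0068, 0.0046 and 0.0023 with the mean of all probe sets, without muscle 1, and without tumours 1 and 5. For 8 members whose difference was under its standard error no direction is given, since its sign turned under 1 to 10 alternatives. The balance of Lama5 and Lama2 lost its call after quantile normalization (1.56, adjusted p = 0.0635), with no filter on dim genes (1.65, where 4 pairs were tested), and with the CC17 pair averaged (1.43, adjusted p = 0.0857). Without tumours 1 and 5 the 3 balances were 3.38, 1.54 and 1.71, and without single arrays 2.56 to 3.10, 1.54 to 1.85 and 1.20 to 2.03. No pair was called without tumours 1 and 5 (adjusted p = 0.0857 to 0.171), where the exact test on 3 against 4 arrays cannot reach 0.05. Nor was any pair called without any single muscle (adjusted p from 0.0536 to 0.107). There Itga6 minus Itga7 and Lama4 minus Lama2 were at the smallest p possible on 5 against 3 arrays, so their lost calls do not show dependence on any muscle. The random block over the CC17 pair was not run, since 1 pair does not allow its correlation to be estimated. No paired analysis was possible because the labels give the groups no shared replicate numbers. Genes near the floor, such as Itga10 and Itgb6, are limited by signal over background. Itga10 passed the filter through the muscles, where it was high, so its steady call is weaker support than those of Itga6, Itga7 and Nid2.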
